A study of Homo sapiens with 4 samples.

Results

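The genes described here encode the HLA class I heavy chains HLA-B, HLA-C, HLA-E and HLA-F, their light chain B2M, the peptide loading proteins TAP1, TAP2 and TAPBP, and NLRC5, a transactivator of class I genes. They were found by gene name, and the FPKM (read fragments normalised by transcript length and sequencing yield) of a gene was summed over its transcripts without a failed status. The rule found all 9 genes, among 53617 genes in the tables, with 107 transcripts, none of which had failed. No second chromosome copy of any of the 9 names was present.

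The libraries came from HT29, an established line of human colon cancer cells with epithelial character. One culture received a miR-23b precursor, which raises that microRNA, and was compared with a culture given the precursor control. Another received an antimir, which blocks the microRNA, and was compared with a culture given the antimir control. Cells of all 4 groups, at passages 12 to 13, were in 5% serum and at 90% confluency when transfected by Lipofectamine 2000 at 50 nM (the labels write "50nm"), had fresh medium at 24 h and were collected for RNA at 48 h. Each group was 1 library, so no difference below has a replicate check, and read depth is unknown because FPKM carries no counts. In bulk RNA, more RNA per cell and more cells with the RNA cannot be told apart.

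Class I molecules show peptides made inside a cell to cytotoxic T cells and natural killer cells. The proteasome cuts proteins, TAP1 and TAP2 carry the peptides into the endoplasmic reticulum, and tapasin holds an empty heavy chain and B2M at the transporter until a peptide fits. Interferons raise transcription of most of these genes through sites in their promoters, and NLRC5 is itself inducible by interferon.

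Of the 9 genes, 6 were more abundant with the antimir than with its control by over 1.5-fold: HLA-F, TAP1, B2M, HLA-B, NLRC5 and HLA-C, in falling order of difference. The measure was the difference of log2(FPKM + 1), treated minus control, centred on the median over all genes that averaged 1 FPKM or more in the pair. On that scale 1.5-fold is 0.585, and folds of low genes are understated. All 9 genes passed the filter in both tables. In the antimir comparison 6 of 9 (66.7%) lay past 1.5-fold upward and 0 downward, with a median difference of 0.92, against 5.07% of all 14190 genes upward and 2.9% downward. Of the 11060 protein-coding genes, 1.75% lay past it upward and 0.886% downward. HLA-F ranked 36 among those coding genes by its difference, TAP1 ranked 56, B2M 61, HLA-B 63, NLRC5 73, HLA-C 112 and TAP2 198, while HLA-E and TAPBP ranked 1547 and 6412.

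With the precursor, none of the 9 genes lay past 1.5-fold in either direction. Their differences ran from -0.25 for TAP1 to 0.23 for TAPBP, with a median of 0.06; 5 were above 0 and 4 below. For comparison, 3.36% of all 16982 genes lay past 1.5-fold upward and 3.32% downward, and of the 11346 coding genes 0.529% and 0.617% did. At that line the antimir comparison was not mirrored: genes higher with the antimir were not past 1.5-fold lower with the precursor. Few coding genes passed that line. Ranked from the highest precursor difference among the 11346 coding genes, HLA-F was 2377, NLRC5 3961, HLA-C 6264, HLA-B 7231, B2M 8636 and TAP1 10521. The difference between the comparisons was not tested, since the design has no replicates.

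**Figure D1:**
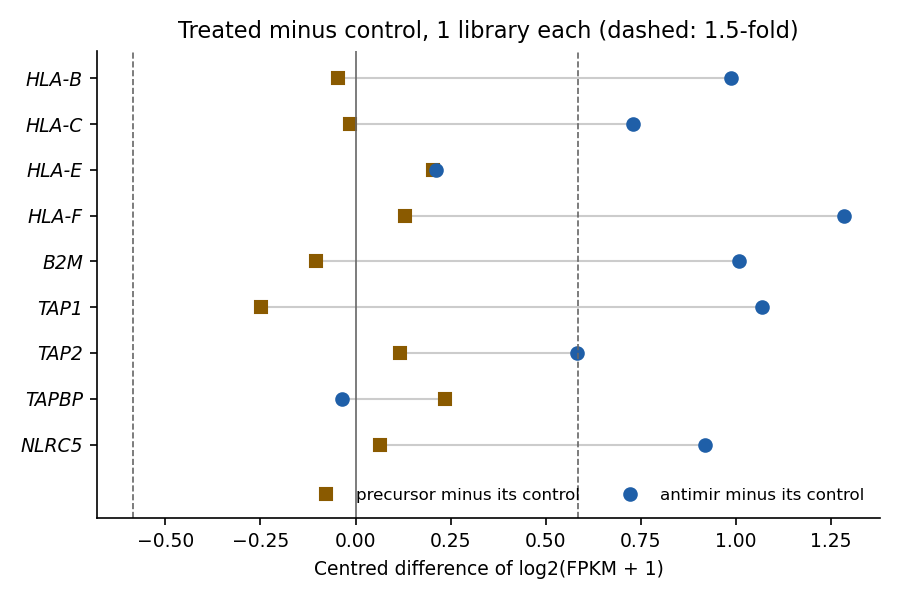
Centred difference of log2(FPKM + 1), treated minus control, for each of the 9 genes (squares, precursor; circles, antimir; 1 library a group; dashed lines, 1.5-fold). The circles of 6 genes lie beyond the right dashed line and TAP2 lies just inside it at 0.58, while every square lies between the dashed lines.

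Among the classical heavy chains, HLA-B (ENSG00000234745.3, hg19 chr6:31321649-31324965), which presents peptides to CD8 T cells, was measured at 20.3 FPKM with the precursor and 20.6 with its control. It was at 30.1 with the antimir and 15.1 with the antimir control, a difference of 0.99. The antimir library was the highest of the 4 and its control the lowest. HLA-C (ENSG00000204525.8, hg19 chr6:31236526-31239907), a classical chain that natural killer receptors also read, was at 58.0 and 57.6 FPKM in the precursor pair, in that order. It reached 80.7 with the antimir against 49.6 in the control, a difference of 0.73. Both genes were thus near equal in the precursor pair and apart in the antimir pair. Levels are compared across pairs only as deposited, since each table was normalised separately.

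The nonclassical chains differed from each other. HLA-E (ENSG00000204592.5, hg19 chr6:30457244-30461982) presents leader peptides of other class I chains to natural killer receptors. Its level was 70.1 FPKM with the precursor against 59.8, a difference of 0.20, and 51.4 with the antimir against 45.4, a difference of 0.21. It was the heavy chain with the smallest antimir difference and did not pass 1.5-fold in either comparison. HLA-F (ENSG00000204642.7, hg19 chr6:29690552-29716826), a chain that can reach the surface without peptide, was at 11.2 and 9.996 FPKM in the precursor pair. It was at 11.3 with the antimir and 4.20 with the antimir control, a difference of 1.28. As deposited, the antimir library was near the level of the precursor pair and the antimir control was lowest. Each table was normalised separately, so which library of the antimir pair stood apart cannot be told. The locus holds 5 other genes, among them the antisense gene HLA-F-AS1, and strandedness is not given in the sources used here, so reads of HLA-F and its antisense partner cannot be told apart.

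B2M (ENSG00000166710.11, hg19 chr15:45003675-45011075), the light chain of every class I molecule, was the most abundant of the 9 in each library. It was at 3016 FPKM with the precursor and 3191 with its control, a difference of -0.10. With the antimir it was at 4966 FPKM and with the antimir control at 2536, a difference of 1.01. B2M held between 92.8% and 95.07% of the 9 genes' summed FPKM. The ratio of B2M to the summed HLA-B, HLA-C, HLA-E and HLA-F was 18.9 with the precursor, 21.55 with its control, 28.62 with the antimir and 22.17 with the antimir control. The 9 genes together took 0.357% of all FPKM with the antimir and 0.176% with its control, against 0.116% and 0.12% in the precursor pair. Between the tables these shares do not follow the level of the 9 genes. Their sum was 2713 FPKM in the antimir control and 3405 in the precursor control.

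**Figure D2:**
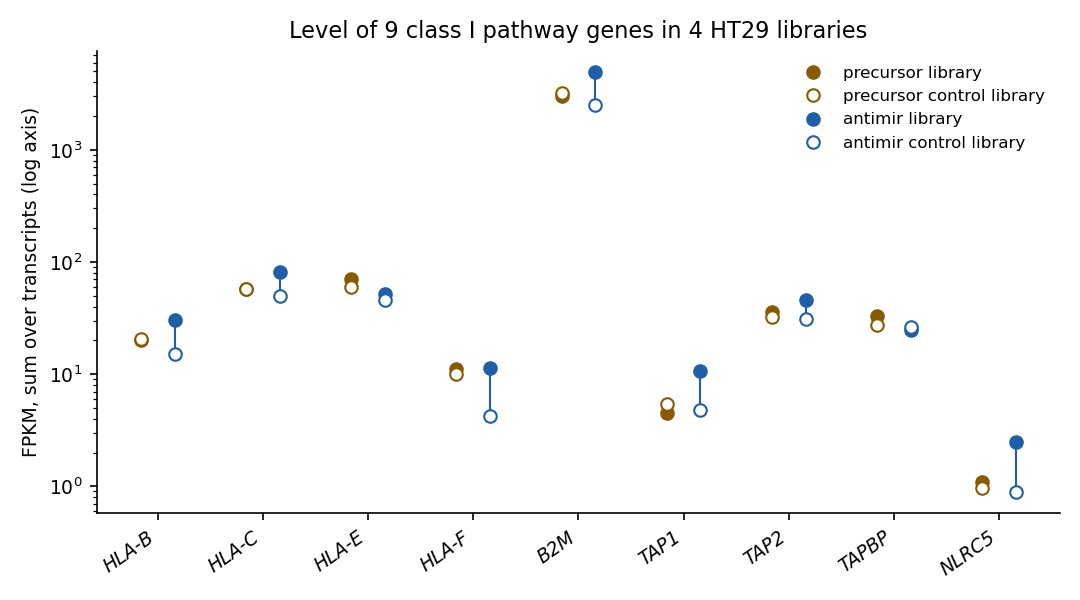
FPKM of each of the 9 genes in the 4 libraries on a log axis, 1 point a library. B2M lies far above the rest, from 2536 to 4966, and NLRC5 is the lowest gene in every library.

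Both subunits of the peptide transporter were measured, and their differences were unequal. TAP1 (ENSG00000168394.9, hg19 chr6:32808494-32847625) was at 4.49 FPKM with the precursor and 5.42 with its control, a difference of -0.25. It was at 10.7 with the antimir and 4.74 with the antimir control, a difference of 1.07. As deposited in separately normalised tables, the antimir library stood above the other 3, which lay close together. TAP2 (ENSG00000204267.8, hg19 chr6:32780540-32806599) was at 35.9 and 32.6 FPKM in the precursor pair and at 46.0 and 31.2 in the antimir pair. Its antimir difference of 0.58 (0.581 before rounding) lay just under the 1.5-fold line, and with a pseudocount of 0.1 in place of 1 it was 0.60, past it. The ratio of TAP2 to TAP1 was 4.287 with the antimir and 6.591 with its control, and 8.0 and 6.0 in the precursor pair. This is a ratio of gene sums, not of coding transcripts. Transcripts annotated as coding held 21.77% of TAP2 FPKM with the antimir and 23.34% with its control, against 47.21% and 45.01% for TAP1. The deposited locus of TAP1 is shared with PSMB8 and PSMB9, and that of TAP2 with HLA-DOB, so reads in overlapping stretches could be split between them.

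TAPBP (ENSG00000231925.6, hg19 chr6:33267471-33282164) encodes tapasin, which bridges the transporter and the heavy chain. It was at 32.7 FPKM with the precursor against 27.2, a difference of 0.23, and at 24.7 with the antimir against 26.1, a difference of -0.04. It was the one gene of the 9 below 0 in the antimir comparison. NLRC5 (ENSG00000140853.10, hg19 chr16:57023397-57117443), which acts in the nucleus on class I promoters, was at 1.09 FPKM with the precursor and 0.97 with its control. It was at 2.47 with the antimir and 0.88 with the antimir control, a difference of 0.92. These levels are near the filter of 1 FPKM, and at a filter of 5 FPKM NLRC5 is no longer measured.

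In the precursor pair the order of levels was identical in both libraries: B2M, HLA-E, HLA-C, TAP2, TAPBP, HLA-B, HLA-F, TAP1 and NLRC5. In the antimir library HLA-C stood above HLA-E and HLA-B above TAPBP. In the antimir control HLA-C also stood above HLA-E, TAPBP above HLA-B, and TAP1 above HLA-F. With 1 library a group, whether neighbours in this order differ could not be tested.

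**Figure D3:**
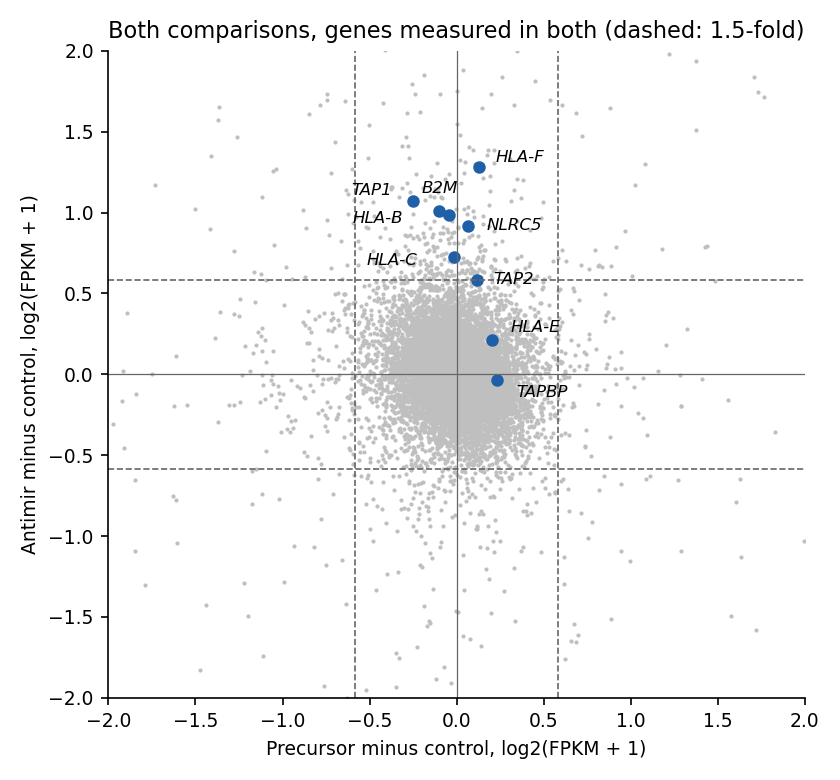
Centred differences of log2(FPKM + 1) in the precursor comparison (x axis) and the antimir comparison (y axis) for genes averaging 1 FPKM or more in both pairs (grey) and the 9 class I genes (blue). Of 13757 genes, 301 lie outside the axes; 6 class I genes lie above the upper dashed line of 1.5-fold and all 9 lie between the vertical lines.

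The transcripts behind these sums were uneven. For HLA-B, 1 transcript, ENST00000428231.2, carried most of the difference, at 12.5 FPKM with the antimir and 2.33 with its control. In the authors' deposited table it was called higher, with a p of 8.89773e-08 and a q of 0.000111846, from 1 library against 1. The most abundant HLA-B transcript, ENST00000426590.1, was at 13.7 and 12.5 FPKM. ENST00000412585.2 was at 3.04 with the antimir against 0, and ENST00000434333.1, at 4.97 and 6.39 FPKM in the precursor pair, was at 0 in the antimir pair. Judged by the most abundant transcript alone the HLA-B difference was 0.15, and HLA-B was not past 1.5-fold. ENST00000428231.2 went the other way in the precursor pair, at 0 FPKM against 0.319, and was called lower in the authors' deposited table with a q of 0.0238987. HLA-B and HLA-C are close in sequence and vary between people, and how reads of the HT29 alleles were shared among their transcripts was not tested.

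HLA-C rested mainly on the coding transcript ENST00000376228.5. It was at 60.6 FPKM with the antimir and 32.1 with its control, and the authors' deposited table called it higher with a p of 5.99694e-05 and a q of 0.0201518. In the precursor pair it was at 34.3 and 34.1 FPKM. Another coding transcript, ENST00000415537.1, was nearly level in the antimir pair, at 13.9 and 12.7 FPKM, a difference of 0.15. This transcript held 17.24% of HLA-C with the antimir and 25.69% with its control, and was at 6.42 and 4.11 FPKM in the precursor pair. HLA-E was carried by the coding ENST00000376630.4, at 50.0 and 44.6 FPKM in the precursor pair and 49.4 and 45.4 in the antimir pair. Its retained-intron transcript ENST00000493699.1 was at 18.7 against 14.0 FPKM in the precursor pair, called higher in the authors' deposited table with a q of 0.0440667, and at 1.30 against 0 in the antimir pair. Most HLA-E FPKM was thus from a coding transcript, with a larger intron-holding share in the precursor table.

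For HLA-F, transcripts annotated as coding held only 11.21% of FPKM with the antimir and 11.45% with its control. The largest increments with the antimir were in the processed transcripts ENST00000489502.1, at 4.05 against 0.766 FPKM, and ENST00000482257.1, at 2.55 against 0.627. Also higher were the processed ENST00000485513.1, at 1.503 against 0.320, and ENST00000484704.1, at 0.620 against 0, and the coding ENST00000434407.2, at 1.23 against 0.481. A further processed transcript, ENST00000429294.1, went the other way, at 1.08 against 1.98 FPKM. In the precursor library HLA-F was led by ENST00000485513.1, at 5.37 FPKM against 3.88 in the control, where ENST00000429294.1 was level with it at 3.88 (3.41 with the precursor), so the libraries of the separate tables also differed in which HLA-F transcripts were reported.

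B2M was led by ENST00000396754.4, which the authors' table marks as low data and which GENCODE 29 does not hold. It was at 3121 FPKM with the antimir and 1608 with its control, or 62.84% and 63.41% of the gene. ENST00000559220.1 was at 1127 and 516 FPKM, with a q of 0.999999 in the authors' deposited table, so it was not called. ENST00000557901.1 did not share the difference, at 40.0 and 43.9 FPKM, although it was at 638 and 671 FPKM in the precursor pair. The transcripts that GENCODE 29 annotates as coding held at most 0.05% of B2M FPKM in any library. The gene sum, rather than any 1 coding transcript, therefore carries the B2M values given above.

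Both main TAP1 transcripts were higher with the antimir: ENST00000425148.2 at 5.66 against 2.61 FPKM and the coding ENST00000354258.4 at 5.06 against 2.13. The latter had a q of 0.151066 in the authors' deposited table and was not called. TAP2 was dominated by ENST00000485701.1, a processed transcript of 274 bases that held 69.85% of the gene with the antimir and 68.23% with its control. Its coding transcript ENST00000374897.2 was at 6.40 and 3.93 FPKM in the antimir pair and 3.51 and 3.72 in the precursor pair. A second coding transcript, ENST00000374899.4, was nearly level, at 3.62 and 3.36 FPKM in the antimir pair, a difference of 0.12. TAPBP rested on the coding ENST00000434618.2, at 21.8 and 22.3 FPKM in the antimir pair and 20.1 and 17.3 in the precursor pair.

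NLRC5 was spread over 31 transcripts, none above 0.532 FPKM in any library. ENST00000538059.1 was highest, at 0.532 FPKM with the precursor and 0 with its control. In the antimir library ENST00000543141.1 led, at 0.305 FPKM against 0.185 in the control, followed by the coding ENST00000538805.1 at 0.279 against 2.79e-05. In the antimir control the retained-intron ENST00000534931.1 and the processed ENST00000535658.1 led, and both were lower with the antimir, at 0.180 against 0.2502 and 0.0751 against 0.198. Judged by the most abundant transcript alone, NLRC5 fell under the filter and was not called in either comparison. The authors tested 0 NLRC5 transcripts in the antimir table and 2 in the precursor table.

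**Figure D4:**
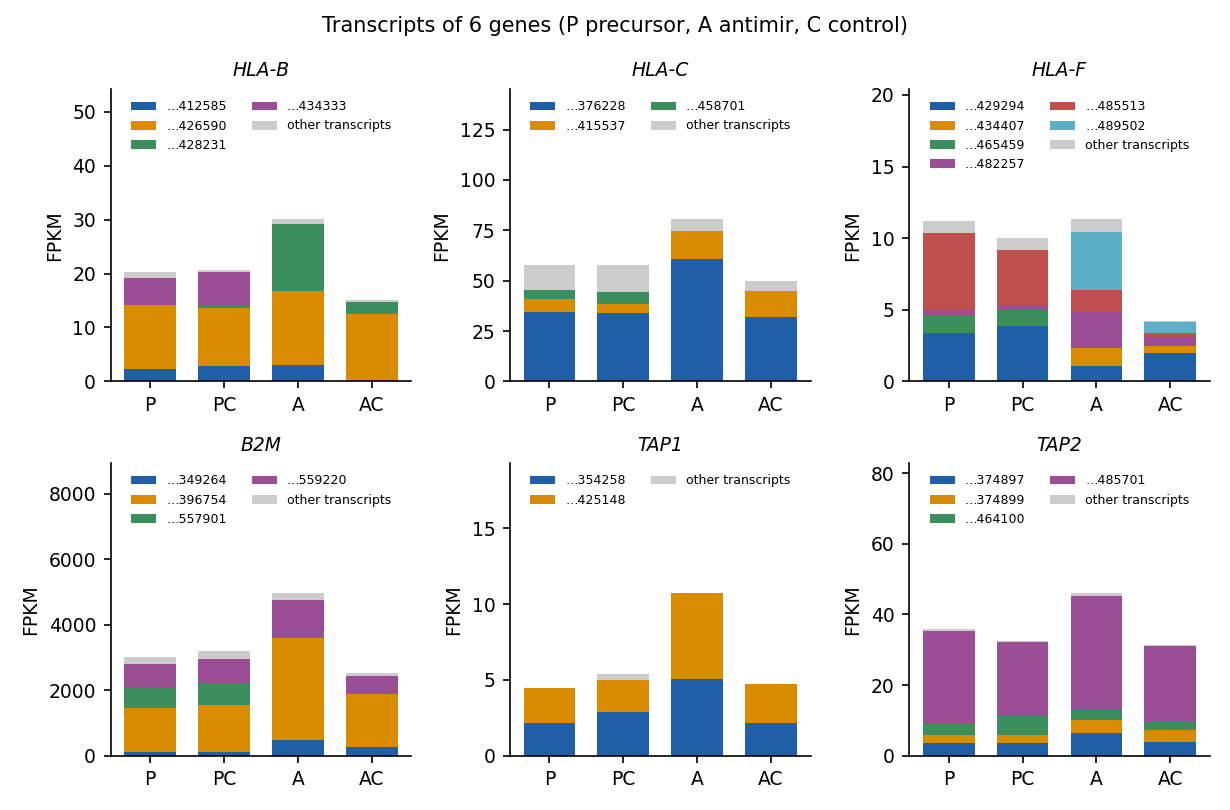
Stacked FPKM of the transcripts of HLA-B, HLA-C, HLA-F, B2M, TAP1 and TAP2 in the precursor (P), precursor control (PC), antimir (A) and antimir control (AC) libraries, each color 1 transcript with at least 10% of its gene in a library. The HLA-B panel shows ENST00000428231.2 at 12.5 against 2.33 beside ENST00000426590.1 at 13.7 against 12.5 in the antimir pair.

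Across the 9 genes, the authors' deposited table for the antimir tested 44 transcripts and called 2 higher (4.55%) and 0 lower, against 0.243% called higher and 0.171% lower of all 62029 transcripts tested. The authors' deposited table for the precursor tested 47 and called 2 higher (4.26%) and 4 lower (8.51%), against 6.91% and 6.66% of all 78175. The precursor shares were near that background. The calls not described above were, in the authors' deposited table, HLA-B ENST00000452596.2 higher at 0.923 against 0 FPKM. HLA-C ENST00000466892.1 at 0.218 against 2.198, TAP1 ENST00000487296.1 at 0 against 0.448 and TAP2 ENST00000464100.1 at 3.29 against 5.29 were called lower. The HLA-B, HLA-C and TAP1 entries were low values or minor transcripts, while the TAP2 transcript held 9.14% of its gene with the precursor and 16.26% with its control. None moved its gene's sum past 1.5-fold.

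The microRNA pairs with messengers through its seed, bases 2 to 8 of the mature strand. The mature miR-23b-3p (RefSeq, GRCh38.p14 chr9:95085265-95085287, plus strand) is shown with its seed in capitals, with miR-23a-3p, which has an identical seed, and then 1 window for each class I gene whose longest 3′ untranslated region in GENCODE 29 holds the complementary letters AATGTGA, in capitals.
hsa-miR-23b-3p: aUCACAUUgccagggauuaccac
hsa-miR-23a-3p: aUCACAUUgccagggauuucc
HLA-B: ctgttagcatAATGTGAggaggtggag
HLA-C: ctgttagcatAATGTGAggaggtggag
HLA-E: ctgttagcacAATGTGAggaggtagag
B2M: cttggtaaaaAATGTGAaccccttgta

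The HLA-B and HLA-C windows were identical at 27 of 27 bases, HLA-E matched them at 25 of 27, and B2M matched at 12 of 27. The site began at base 132 of 429 in HLA-B, 810 of 1108 in HLA-C and 637 of 1285 in B2M. HLA-E held it 2 times, at bases 157 and 1008 of 1459. No such letters were in the longest region of HLA-F, TAP1, TAP2, TAPBP or NLRC5. The letters were present in 4 of 9 class I genes, against 3811 of 19469 genes (19.6%). Of the 6 genes past 1.5-fold with the antimir 3 held the letters, and of the other 3 genes 1 did. In B2M the letters were in 1 of 7 annotated 3′ regions, that of ENST00000558401, which was at 0.451 FPKM with the antimir and 0.0468 with its control, or at most 0.01% of the gene. The leading B2M transcript, ENST00000396754.4, held 62.84% of the gene with the antimir and 63.41% with its control. It is not in GENCODE 29, so its 3′ region was not searched. With B2M counted as lacking the letters, 3 of 9 genes held them, and 2 of the 6 past 1.5-fold. The letters were in all 3 annotated regions of HLA-C and in the 1 of HLA-B, that of ENST00000412585. This HLA-B transcript held 10.1% of its gene with the antimir and 0% with the antimir control. HLA-B transcripts absent from GENCODE 29 held 89.64% and 97.86% in that pair, and their 3′ regions were not searched. HLA-F and TAP1, with the highest antimir differences, held none in the regions searched, and HLA-E, with 2 matches, was not past 1.5-fold. The TAP1 transcript ENST00000425148.2 held 52.79% of its gene with the antimir and 54.99% with its control. It is not in GENCODE 29, so its 3′ region was not searched. The longest HLA-F region was that of ENST00000475996, at 0 FPKM in the antimir pair. Coding transcripts held 11.21% and 11.45% of HLA-F in that pair. In the precursor pair the 4 genes with the letters had differences of -0.05 (HLA-B), -0.01 (HLA-C), 0.20 (HLA-E) and -0.10 (B2M). A match of letters is a description and does not show pairing.

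The promoters are shown because 6 of the genes were higher together with the antimir. RefSeq (GRCh38.p14) promoters from 250 bases before to 50 after the start were matched by symbol for 7 of 9 genes, with 8 entries, and HLA-E and NLRC5 were not matched. They were searched on both strands for the interferon-stimulated response element (ISRE), written GAAANNGAAA. Windows are given 5′ to 3′ on the gene's strand, and capitals mark these letters on either strand, or the nearest match with 2 mismatches for HLA-B (chr6:31357310-31357349, minus) and HLA-C (chr6:31272219-31272258, minus). The others are HLA-F (chr6:29723263-29723302, plus), B2M (chr15:44711358-44711403, plus), TAP1 (chr6:32853808-32853853, minus), TAP2 (chr6:32838773-32838812, minus) and TAPBP (chr6:33314068-33314113, minus).
HLA-B: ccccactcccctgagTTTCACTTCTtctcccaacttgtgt
HLA-C: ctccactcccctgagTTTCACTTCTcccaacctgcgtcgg
HLA-F: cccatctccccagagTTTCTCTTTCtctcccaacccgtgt
B2M: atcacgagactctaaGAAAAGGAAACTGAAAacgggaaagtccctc
TAP1: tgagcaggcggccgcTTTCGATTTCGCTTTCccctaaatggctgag
TAP2: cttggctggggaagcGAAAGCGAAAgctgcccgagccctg
TAPBP: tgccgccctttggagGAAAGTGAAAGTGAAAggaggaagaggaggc

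The exact letters were in 5 of the 7 matched genes (HLA-F, B2M, TAP1, TAP2 and TAPBP), against 1255 of 35116 promoters (3.57%). The background counts promoter entries, not genes. B2M, TAP1 and TAPBP each held 2 overlapping matches. TAP1 had 2 of the 8 entries: the window and matches shown are from the first, and the second held no exact match. The capitals began at -155 in HLA-B, -151 in HLA-C, -156 in HLA-F, -144 in B2M, -134 in TAP1, -58 in TAP2 and -20 in TAPBP, in bases from the start. The letters were in 3 of the 5 matched genes past 1.5-fold with the antimir and in both matched genes not past it, TAP2 and TAPBP. TAPBP held 2 matches and had the lowest antimir difference of the 9 genes. The kappa B letters GGGNNTTNCC were in HLA-B, B2M, TAP1 and TAPBP, against 5.68% of promoters, and CCAAT was in HLA-B, HLA-C, HLA-F, B2M and TAP1, against 34.6%. TTCNNNGAA, the letters of the gamma-activated site, were in 1 gene, TAP1, against 7.66% of promoters. They lay only in the second TAP1 entry, while its kappa B and CCAAT letters lay in the first. None of these matches shows that a factor was bound.

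Other genes of the route to the surface were read from 6 lists with 78 genes. Of 15 genes for peptide generation, 2 lay past 1.5-fold upward with the antimir and 0 downward, with a median of 0.13. PSMB8 and PSMB9, subunits of the immunoproteasome that lie beside TAP1, were those 2. PSMB9 was at 13.2 FPKM with the antimir and 5.51 with its control, and PSMB8 at 32.6 and 17.01. With the precursor PSMB9 was at 5.03 against 6.68 and PSMB8 at 17.5 against 19.6, and 0 of 15 lay past 1.5-fold. PSME2, an activator subunit of the proteasome, was at 252 against 180 FPKM (179.509 before rounding) with the antimir, a difference of 0.52, and its partner PSME1 at 248 against 231, a difference of 0.14.

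Of 12 chaperones and trimming peptidases, 1 lay past 1.5-fold in each comparison, the tapasin-related peptide editor TAPBPL. It was at 3.77 FPKM with the precursor against 6.74, a difference of -0.72, and at 6.76 with the antimir against 4.06, a difference of 0.66. TAPBPL was thus lower in one pair and higher in the other. Judged by the most abundant transcript of each gene, 0 list genes lay past 1.5-fold downward with the precursor. CANX, a lectin chaperone of new heavy chains, had differences of 0.22 with the precursor and -0.32 with the antimir. CALR had 0.08 and 0.07, and PDIA3, a partner of tapasin, 0.15 and 0.12. The peptidases ERAP1 and ERAP2, which trim peptides in the endoplasmic reticulum, had antimir differences of 0.29 and 0.33. The list's median was 0.14 with the precursor and 0.07 with the antimir. Centring sets the median over all genes to 0.00 in both.

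Among 15 transcription factors of class I genes, 14 passed the filter. With the antimir 2 lay past 1.5-fold upward and 1 downward, and with the precursor 0 did. IRF9, the DNA-binding subunit of the interferon-stimulated factor that reads the response element, was at 103 against 60.8 FPKM with the antimir, a difference of 0.79, and at 61.7 against 66.8 in the precursor pair. NFKB1 was at 9.89 against 16.6, a difference of -0.66. IRF1, a factor that binds the response element, had an antimir difference of 0.19 and RFX5, which binds class I promoters with NLRC5, of 0.04. CIITA, the class II counterpart of NLRC5, did not pass the filter.

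Of 14 other class I and class I-like molecules, 0 lay past 1.5-fold in either comparison. Their medians were 0.07 over the 12 measured with the precursor and 0.05 over the 11 measured with the antimir. HLA-G was at 8.01 against 6.64 FPKM in the antimir pair, and the stress ligand ULBP1 at 1.19 against 2.09, a difference of -0.46. Of 13 class II genes and partners only 5 passed the filter. With the antimir 1 of these lay past 1.5-fold, the lysosomal protease CTSS, at 22.3 against 14.0 FPKM. HLA-DMB had an antimir difference of 0.57, and CD74 a precursor difference of 0.58 and an antimir difference of 0.10. HLA-DRA and HLA-DRB1 were listed at 0 in all 4 libraries. Of 9 receptors for class I, KLRC1 and KLRK1 passed the filter in the precursor table, with differences of -0.18 and -0.32, and none passed in the antimir table.

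**Figure D5:**
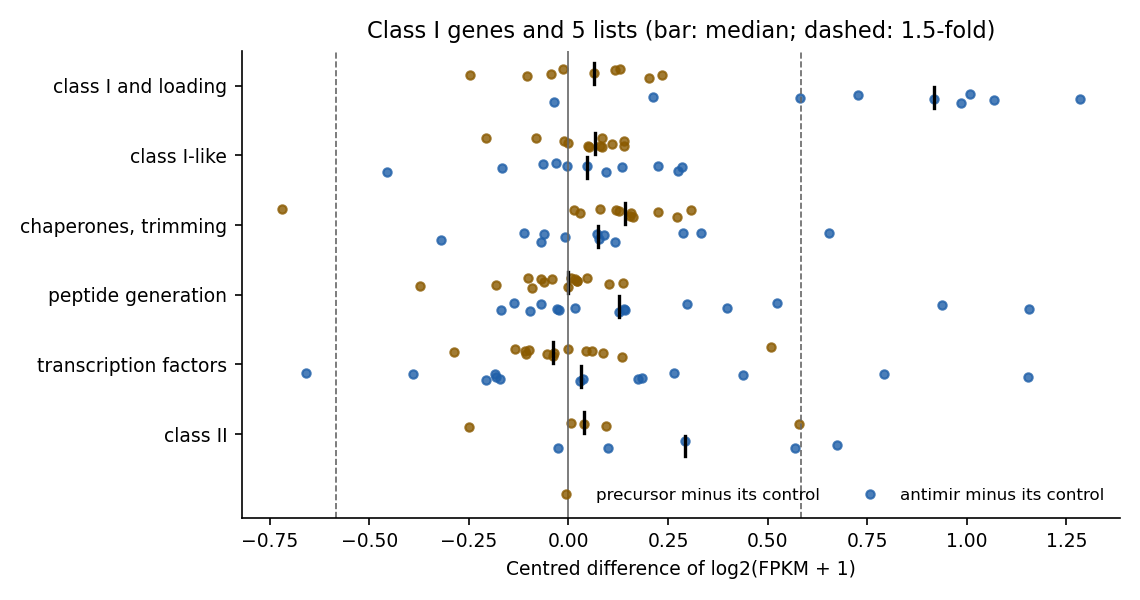
Centred difference of log2(FPKM + 1) for the 9 class I genes and for the measured genes of 5 lists in both comparisons (points, genes; bars, medians; dashed lines, 1.5-fold). The median of the class I genes with the antimir is 0.92, and those of the 5 lists with the antimir lie between 0.03 and 0.29.

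The 5 genes outside these lists with differences nearest to the median pair of the class I genes (0.06 with the precursor, 0.92 with the antimir), by Euclidean distance over 2 comparisons, were found among 11893 candidates. The nearest was UBA7 at a distance of 0.0241, followed by SP110 at 0.0553, OASL at 0.0679, LCN15 at 0.0708 and GBP4 at 0.0841. UBA7 was at 9.84 FPKM with the antimir and 4.83 with its control, and SP110 at 26.0 and 13.8. OASL was at 19.5 and 9.69, LCN15 at 1.84 and 0.468, and GBP4 at 3.14 and 1.31. UBA7, SP110, OASL and GBP4 are known as interferon-induced genes.

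Markers of other cell types were read beside the class I values, since leukocytes express these genes strongly. All 8 epithelial markers were detected, and their summed FPKM was 10607 and 10127 in the precursor pair and 4744 and 4881 in the antimir pair. The 8 leukocyte markers summed to 9.44 and 7.08 FPKM in the precursor pair and to 7.66 in both libraries of the antimir pair. Within that equal sum ITGAM was at 0.555 FPKM with the antimir against 1.65, a difference of -0.73, and CD68 at 5.14 against 4.16, a difference of 0.29. PTPRC, the pan-leukocyte marker, was at 0 in 3 libraries and at 0.00645 FPKM in the antimir control, and MS4A1 was at 0 in all 4. Fibroblast markers summed to at most 0.825 FPKM and endothelial markers to at most 0.0571. Between 13908 and 16809 genes had at least 1 FPKM in a library, and the top 10 genes took between 37.2% and 46.4% of all FPKM. The precursor table had more such genes, with 16809 and 16718, than the antimir table, with 14120 and 13908.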

How the data were processed

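RNA from 4 HT29 cultures, 1 per group, was measured. Per the submitters' processing notes, the authors used bcl2fastq 1.8.3, TopHat2 2.0.11 on hg19, Cufflinks 2.2.0 and Cuffdiff; settings, annotation and strandedness are not given in the sources used here. Per the file headers, each deposited table gives the FPKM of each transcript in a treated library and its control, and the authors' p-value and q-value, which compare libraries, not conditions. The library whose name ends in N was taken as the control. The deposited fold change runs the other way and was not used. Deposited starts count from 0 and were raised by 1.

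FPKM was summed per gene over transcripts without a failed status; entries under a gene identifier were used only for genes with no transcript entry. Differences of log2(FPKM + 1) were centred on the median of genes averaging 1 FPKM or more in a pair, which removed 0.02 in the precursor comparison and -0.04 in the antimir comparison. Calling means past 1.5-fold, with no test. Identifiers were matched without version to GENCODE 29, which holds 46998 of the 53617 genes (87.7%) and 90 of the 107 class I transcripts; no coordinates were taken from it. Promoters and microRNAs are from RefSeq. Python 3.11.15, pandas 2.3.3, numpy 2.4.6 and matplotlib 3.10.9 were used, and the code was tested on simulated data.

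The class I genes and the lists were chosen with earlier results of these data known. Named list genes were up to 3 per list with the largest difference in either comparison, with PSMB8, PSMB9, PSME1, PSME2, ERAP1, TAPBPL, CALR, CANX, PDIA3, RFX5 and IRF1 among those named whatever their values; 2 genes named by this rule are not reported here. Named transcripts were to be those with at least 10% of a gene in any library or called by the authors, and the text gives the leading ones. Genes such as HLA-DRA, CIITA and the markers named singly were picked outside the rule. Alternatives changed the pseudocount, the filter, the transcripts summed and the centring.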

Additional observations from a re-analysis of the deposited data

Results flagged for a closer look

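The tables also hold entries named by gene identifier rather than by transcript, which entered none of the class I gene values above. In the precursor comparison, 8 of the 9 class I entries were lower in the treated library and 1 was higher, HLA-F, at 0.00985 FPKM against 0.00632 in the control. The TAP2 entry, at 0.269 against 0.424 FPKM, was called lower in the authors' deposited table with a q of 0.000238559. In the antimir table all 9 entries were higher in the treated library. Those over 1.5 times the control were HLA-B at 0.0443 FPKM against 0, HLA-F at 0.0456 against 0.00506, TAP1 at 0.321 against 0.181, TAP2 at 0.715 against 0.385 and NLRC5 at 0.0133 against 0.0031. All of these are under 1 FPKM, no source used here says how the entries were made, and the differences between treated and control libraries were not tested here. The entries were not centred, and no share over all gene-identifier entries was taken. Neither count can therefore be read as particular to class I genes.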

How the results depend on the processing

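No paired analysis was possible because each group held 1 library and the labels carry no replicate numbers. The precursor count of class I genes past 1.5-fold was 0 under all 9 alternatives run. The antimir count of 6 ranged from 5 (a filter of 5 FPKM, or the most abundant transcript only) to 7 (pseudocount of 0.1). The antimir difference of HLA-B was 0.15 with the most abundant transcript only. TAP2 passed the line at 0.60 with a pseudocount of 0.1 and with its most abundant transcript, and at 0.5856 with transcripts the authors tested. No class I gene changed direction after lying past 1.5-fold. The count of list genes higher with the precursor was 1 in place of 0 with a pseudocount of 0.1, no filter, the most abundant transcript, tested transcripts only or no centring. The count lower with the precursor was 0 in place of 1 with the most abundant transcript, and that lower with the antimir 2 in place of 1 with a pseudocount of 0.1. Over all genes, a filter of 5 FPKM gave 277 higher and 348 lower with the precursor and 408 higher and 214 lower with the antimir, against 571, 564, 720 and 411. Genes lower with the antimir numbered 684 with no filter and 643 with the most abundant transcript, and those higher with the precursor 351 with tested transcripts only. The causes were not tested. Haplotype copies were not varied, since none was present. FPKM gives no depth, so no detection floor is known, and low genes such as NLRC5 are the least certain.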
